A study of Homo sapiens with 6 samples.

Results

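The 6 genes described here encode enzymes of the pentose phosphate pathway (PGD, RPIA, TKT and TALDO1) and cytosolic enzymes that make NADPH outside it (ME1 and IDH1). They were chosen by name with earlier results of these data known, and all 6 were found among 60651 gene rows. Their RNA was counted in MDA-MB-231 cells, an established human triple-negative breast cancer line labelled as wild type. Cells received DMSO as the solvent control, or AF-EAE, the ethyl acetate extract of Antenoron filiforme, at 75 or 150 µg/ml for 24 h. Each of the 3 groups had 2 libraries, 6 in all, and every group was grown in the same serum-containing medium. The sources used here do not say what the extract contains or whether treated cultures received the same amount of DMSO. The labels call the libraries of a group biological replicates without naming separate cultures, so the spread behind each p-value is that between these libraries and may be technical.

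The pentose phosphate pathway branches from glycolysis at glucose 6-phosphate. Its oxidative branch makes NADPH and ribulose 5-phosphate in steps that do not run backwards, and PGD catalyses the last of them. Its non-oxidative branch turns pentose phosphates into glycolytic intermediates and back, with RPIA forming the ribose 5-phosphate of nucleotides and with TKT and TALDO1 moving carbon units between sugar phosphates. ME1 and IDH1 make cytosolic NADPH from malate and isocitrate. NADPH drives the reductases that keep glutathione and thioredoxin reduced, as well as fatty acid, cholesterol and proline synthesis. PGD, TKT, TALDO1 and ME1 are known targets of the antioxidant transcription factor NRF2, encoded by NFE2L2.

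Gene counts ran from 15621103 to 17113722 per library. Reads outside genes made up 6.32% to 6.72% of all reads, those assigned to a gene and those not, in DMSO. They made up 6.44% to 7.23% at 75 µg/ml and 7.73% to 7.98% at 150 µg/ml, and the part of this in the results was not tested. The line's markers VIM, CD44, AXL, CAV1, KRT8 and KRT18 were all present. Their summed level was 4230 to 4320 CPM (a gene's count relative to the library's gene counts, scaled by TMM) in DMSO, 2980 to 3040 CPM with 75 µg/ml and 2260 to 2300 CPM with 150 µg/ml. Of the markers listed as low in this line, ESR1, PGR and CDH1 stayed at or under 0.915 CPM in every library. EPCAM lay between 3.68 and 5.46 CPM and ERBB2 between 81.1 and 99.3 CPM. The leukocyte genes PTPRC and CD3E, the fibroblast gene DCN and the adipocyte gene ADIPOQ had no read in any library. The fibroblast list, 1 of 3 genes at 0, summed to 8.5 to 12.1 CPM in DMSO, 14.3 to 14.8 CPM at the lower and 12.4 to 15.4 CPM at the higher dose, and the leukocyte list, 3 of 4 at 0, to at most 0.427 CPM. The endothelial and adipocyte lists stayed at or under 1.57 CPM, and the part of these genes in the results was not tested. CPM is a share of the library and does not give the amount of RNA per cell. A change in every cell and a change in the share of cells with the RNA cannot be told apart.

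On GRCh38, PGD (ENSG00000142657.21) spans bases 10398592 to 10420144 of chromosome 1 (plus strand), and RPIA (ENSG00000153574.9) bases 88691644 to 88750935 of chromosome 2 (plus strand). TKT (ENSG00000163931.16) spans bases 53224707 to 53256052 of chromosome 3 (minus strand), and TALDO1 (ENSG00000177156.11) bases 747329 to 765024 of chromosome 11 (plus strand). ME1 (ENSG00000065833.9) spans bases 83210389 to 83431071 of chromosome 6 (minus strand), and IDH1 (ENSG00000138413.14) bases 208236227 to 208266074 of chromosome 2 (minus strand). In IDH1, 1.99% of the exonic length is shared with the antisense gene IDH1-AS1, which had 4 to 10 counts per library. No other exon of the 6 genes is shared with another annotated gene. The processed copies PGDP1 and RPIAP1 had no count in any library.

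The 250 bases before the start sites were searched on both strands for the core of the antioxidant response element, TGACNNNGC, to which NRF2 is known to bind. RefSeq (GRCh38.p14) gave 1 window for each gene and 2 for IDH1. The element occurred in 1 window each of PGD, ME1 and IDH1, and these 3 windows are printed. Capitals mark the match, 5′ to 3′ on the strand of the gene.
PGD, chr1:10398814-10399063, plus strand: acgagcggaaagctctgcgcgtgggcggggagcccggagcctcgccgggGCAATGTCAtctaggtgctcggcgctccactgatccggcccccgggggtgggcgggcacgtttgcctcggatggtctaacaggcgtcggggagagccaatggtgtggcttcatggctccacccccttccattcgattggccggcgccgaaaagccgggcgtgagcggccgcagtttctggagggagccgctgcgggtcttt
ME1, chr6:83431052-83431301, minus strand: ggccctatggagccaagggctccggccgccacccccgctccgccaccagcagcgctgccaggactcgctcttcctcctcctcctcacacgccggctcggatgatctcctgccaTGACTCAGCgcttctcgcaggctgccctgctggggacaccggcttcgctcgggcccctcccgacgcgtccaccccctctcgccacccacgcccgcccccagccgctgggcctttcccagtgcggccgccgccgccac
IDH1, chr2:208255072-208255321, minus strand: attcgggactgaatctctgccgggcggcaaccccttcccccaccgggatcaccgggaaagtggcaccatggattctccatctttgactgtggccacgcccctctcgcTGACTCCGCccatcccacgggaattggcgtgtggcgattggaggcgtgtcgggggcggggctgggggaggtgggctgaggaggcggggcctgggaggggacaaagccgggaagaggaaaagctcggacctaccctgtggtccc
In PGD the match is on the opposite strand, from 201 to 193 bases before the start. In ME1 it runs from 137 to 129 bases before the start and also holds TGACTCA, the AP-1 motif. In IDH1 it runs from 143 to 135 bases before the start. These starts are those of RefSeq, and the PGD and IDH1 windows lie inside the gene spans given above. TKT, TALDO1, RPIA and the other IDH1 window have no match, while 10.9% of all 35116 windows of this length have one. The E-box CACGTG, found in 6.34% of windows, and TGATGNAA, the core of the element bound by ATF4 with C/EBP factors, found in 3.14%, were in none of the 7 windows. A match describes the letters and shows no binding.

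The level of each gene was compared between the groups with the quasi-likelihood F-test of edgeR, p-values being adjusted over all 15589 genes tested by the Benjamini-Hochberg method, and a gene is said to rise or fall where the adjusted p was under 0.05. At 75 µg/ml against DMSO, PGD, TALDO1, ME1 and IDH1 rose and TKT and RPIA fell. All 6 genes therefore passed, where 38.6% of all genes did. The 6 were chosen with earlier results of these data known. Shares of all genes are given as background only and do not test the set. At 150 µg/ml PGD, ME1 and IDH1 rose, TKT and RPIA fell, and TALDO1 did not pass, against 51.5% of all genes called. Both doses were set against the same DMSO libraries. The median log2 fold change of the 6 was 0.27 at 75 µg/ml and 0.21 at 150 µg/ml, beside 0.01 and 0.03 for all genes tested. The 6 moved in both directions, so their median is not a shared shift. Without regard to sign, the median of all genes was 0.278 and 0.378. PGD and TALDO1 lay under this at both doses and TKT at 75 µg/ml, while ME1, IDH1 and RPIA lay above it at both. With scaling by total counts in place of TMM, the signed median of all genes moved to 0.14 and 0.22. Over all genes, 2989 rose and 3026 fell at 75 µg/ml with TMM against 4494 and 1819 with total counts, and 4022 and 4000 at 150 µg/ml against 6021 and 2544. Under that scaling 4 of the 6 genes rose and 1 fell at 75 µg/ml, and 4 rose and 2 fell at 150 µg/ml.

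PGD, the 6-phosphogluconate dehydrogenase gene, stood at 232 and 217 CPM in the DMSO libraries, 275 and 267 CPM with 75 µg/ml and 282 and 279 CPM with 150 µg/ml. Both DMSO libraries lay below all 4 treated libraries. The means were 224 ± 10.8, 271 ± 5.46 and 280 ± 2.2 CPM (SD, n = 2 each). PGD rose 1.21-fold at 75 µg/ml (log2 fold change 0.27, SE 0.0493, adjusted p = 0.000297, edgeR) and 1.25-fold at 150 µg/ml (0.32, SE 0.0492, adjusted p = 2.98e-05). Between the doses the log2 difference was 0.05 with a 95% interval from -0.05 to 0.15. Under total counts the value at 150 µg/ml was 0.51.

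RPIA encodes the isomerase that makes ribose 5-phosphate. Its level was 50.4 and 47.0 CPM in DMSO, 36.4 and 38.4 CPM with 75 µg/ml and 29.4 and 29.3 CPM with 150 µg/ml. The 3 groups did not overlap and followed the dose. RPIA fell by 0.38 on the log2 scale at 75 µg/ml (SE 0.0813, adjusted p = 0.00123, edgeR) and by 0.73 at 150 µg/ml (SE 0.0831, adjusted p = 1.01e-06), which is 1.66-fold lower. The step from 75 to 150 µg/ml was also lower, by 1.27-fold (adjusted p = 0.00668, edgeR). This step had adjusted p = 0.0644 without the second library at 75 µg/ml and 0.0521 without the first at 150 µg/ml.

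TKT, the transketolase gene, was read at 569 and 559 CPM in DMSO, 499 and 463 CPM with 75 µg/ml and 408 and 423 CPM with 150 µg/ml. Each group lay below the one before it without overlap. The fall was 0.23 on the log2 scale at 75 µg/ml (SE 0.0473, adjusted p = 0.000885, edgeR) and 0.44 at 150 µg/ml (SE 0.0475, adjusted p = 5.34e-07), with means of 564 ± 7.13, 481 ± 25.7 and 416 ± 10.7 CPM (SD, n = 2 each). Under total counts the values were -0.10 (adjusted p = 0.0862, past the threshold no longer) and -0.25. The step between the doses was -0.21 (adjusted p = 0.00428, edgeR), with an adjusted p of 0.114 without the first library at 75 µg/ml and 0.0715 without the first at 150 µg/ml.

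TALDO1, which encodes transaldolase, was highest at the lower dose. It stood at 404 and 372 CPM in DMSO, 481 and 459 CPM with 75 µg/ml and 410 and 424 CPM with 150 µg/ml. The 75 µg/ml libraries lay above the other 4, and the DMSO and 150 µg/ml libraries sat close together, at 372 to 404 and 410 to 424 CPM. The rise at 75 µg/ml was 1.21-fold (log2 fold change 0.28, SE 0.05, adjusted p = 3e-04, edgeR). At 150 µg/ml the log2 difference from DMSO was 0.10 with a 95% interval from -0.00 to 0.21 (adjusted p = 0.1, edgeR), while total counts gave 0.29 (adjusted p = 8e-05) and leaving out the first DMSO library 0.16 (adjusted p = 0.0234). From 75 to 150 µg/ml it fell by 0.17 (adjusted p = 0.0187, edgeR). That fall did not pass under total counts (adjusted p = 0.112), nor without the first library at 75 µg/ml (0.196) or the first at 150 µg/ml (0.171).

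ME1, the cytosolic malic enzyme gene, had 41.4 and 45.8 CPM in DMSO, 63.4 and 63.3 CPM with 75 µg/ml and 69.0 and 69.8 CPM with 150 µg/ml. All 4 treated libraries lay above DMSO, by more than the spread within any group. ME1 rose 1.45-fold at 75 µg/ml (log2 fold change 0.54, SE 0.0734, adjusted p = 1.59e-05, edgeR) and 1.59-fold at 150 µg/ml (0.67, SE 0.0728, adjusted p = 5.61e-07). The difference between the doses was 0.13 with a 95% interval from -0.02 to 0.28 (adjusted p = 0.202, edgeR).

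IDH1, the gene of the cytosolic and peroxisomal NADP-dependent isocitrate dehydrogenase, went furthest of the 6 at both doses. Its libraries gave 80.6 and 97.5 CPM in DMSO, 150 and 139 CPM with 75 µg/ml and 153 and 163 CPM with 150 µg/ml. The DMSO libraries differed more from each other than those of either treated group, and still lay below all treated ones. The rise was 1.62-fold at 75 µg/ml (log2 fold change 0.70, SE 0.0742, adjusted p = 1.04e-06, edgeR) and 1.78-fold at 150 µg/ml (0.83, SE 0.0738, adjusted p = 4.92e-08). Leaving out single libraries gave 0.57 to 0.84 and 0.69 to 0.97. Of all genes tested, 83.1% had a smaller absolute log2 fold change than IDH1 at 75 µg/ml, 75.3% a smaller one than ME1 and 49.2% a smaller one than PGD.

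**Figure D1:**
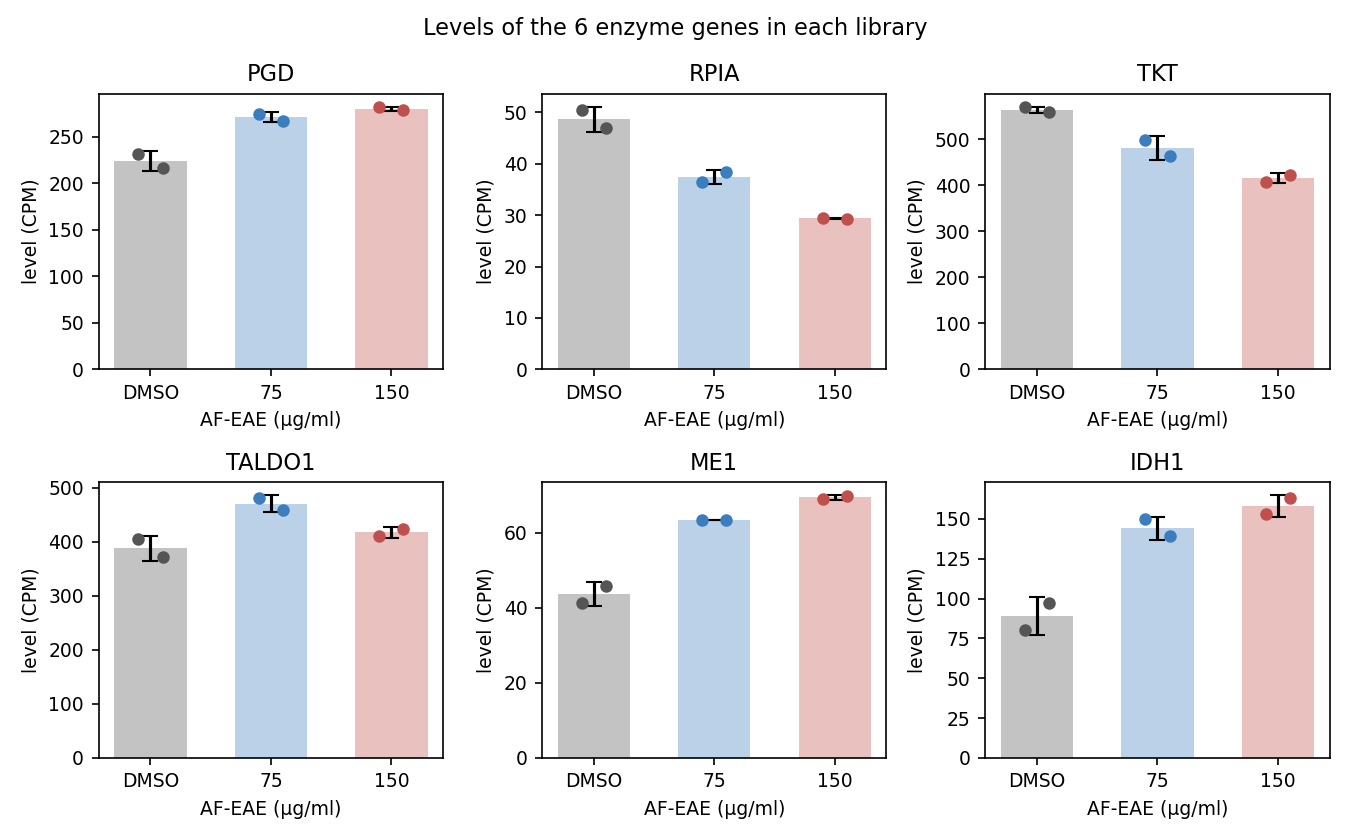
Level in TMM-scaled CPM (y axis, from 0) of the 6 genes in each library (points), with the group mean (bar) and SD of 2 libraries (error bar), by AF-EAE dose (x axis). PGD, ME1 and IDH1 are higher at both doses, RPIA and TKT step down with dose, and TALDO1 is highest at 75 µg/ml.

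**Figure D2:**
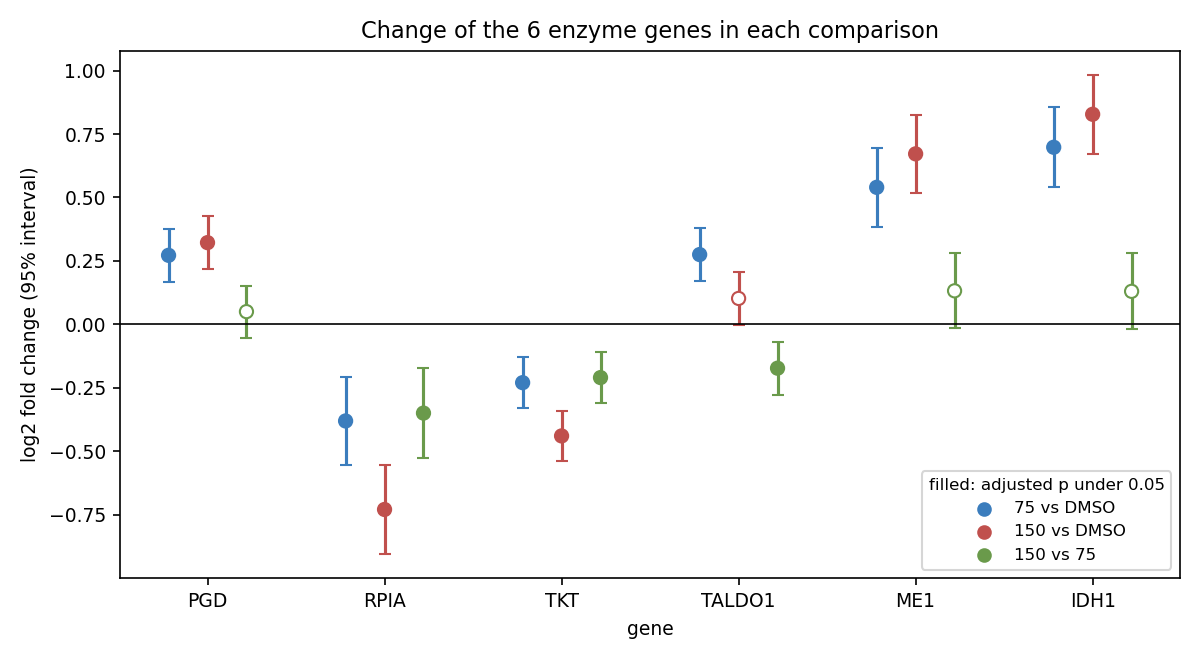
Log2 fold change (y axis) of each gene (x axis) in the 3 comparisons, with its 95% interval from the edgeR fit; filled points have an adjusted p under 0.05. The 2 NADPH-making genes outside the pathway show the largest rises (0.54 to 0.83), and RPIA the largest fall (-0.73).

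The step from 75 to 150 µg/ml was called for RPIA, TKT and TALDO1, each lower, where 22% of all genes were called, 9.51% higher and 12.5% lower. Without the first library at 150 µg/ml no gene of the 6 passed edgeR's threshold for this step, with 3 at an unadjusted p under 0.05. The whole set gave 3 by DESeq2. A further contrast asked whether the log2 change over this second step differed from that over the first, from DMSO to 75 µg/ml. It was lower for TALDO1 by 0.45 (SE 0.0856, adjusted p = 0.00221, edgeR), for IDH1 by 0.57 (SE 0.124, adjusted p = 0.00573) and for ME1 by 0.41 (SE 0.123, adjusted p = 0.0366), where 13.3% of all genes were called, 5.86% higher and 7.4% lower. For TKT and RPIA the difference between the steps was 0.02 (95% interval -0.15 to 0.19) and 0.03 (-0.27 to 0.34), and for PGD it was -0.22 (adjusted p = 0.0953, edgeR). None of the 3 held without the first library at 75 µg/ml, where the adjusted p was 0.0657 for TALDO1, 0.103 for IDH1 and 0.218 for ME1 (edgeR; all 3 at an unadjusted p under 0.05, and 2 called by DESeq2 on all libraries). The ME1 call was also lost by DESeq2 (adjusted p = 0.13) and without any other single library (adjusted p 0.0757 to 0.184) except the second DMSO library.

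Ratios of counts within a library do not depend on how libraries are scaled to each other. PGD had 0.407 and 0.387 counts per TKT count in DMSO, 0.55 and 0.577 with 75 µg/ml and 0.69 and 0.658 with 150 µg/ml. Against RPIA, PGD had 4.6 and 4.61 counts in DMSO, 7.54 and 6.95 with 75 µg/ml and 9.57 and 9.52 with 150 µg/ml, 2.07-fold the DMSO mean. Both ratios were higher in all 4 treated libraries than in DMSO. Against TALDO1, the other gene of the non-oxidative branch, PGD had 0.573 and 0.582 counts in DMSO, 0.571 and 0.582 with 75 µg/ml and 0.688 and 0.658 with 150 µg/ml, so that this ratio was higher only with the higher dose. TALDO1 had 0.71 and 0.665 counts per TKT count in DMSO, 0.964 and 0.991 with 75 µg/ml and 1.00 in both libraries with 150 µg/ml. IDH1 had 1.95 and 2.13 counts per ME1 count in DMSO, 2.36 and 2.2 with 75 µg/ml and 2.22 and 2.33 with 150 µg/ml. This ratio moved less, to 1.12-fold the DMSO mean at each dose, but was also higher in all 4 treated libraries. These ratios are a description of the libraries, since an exact two-sided permutation test of 2 against 2 values cannot go below p = 0.333.

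**Figure D3:**
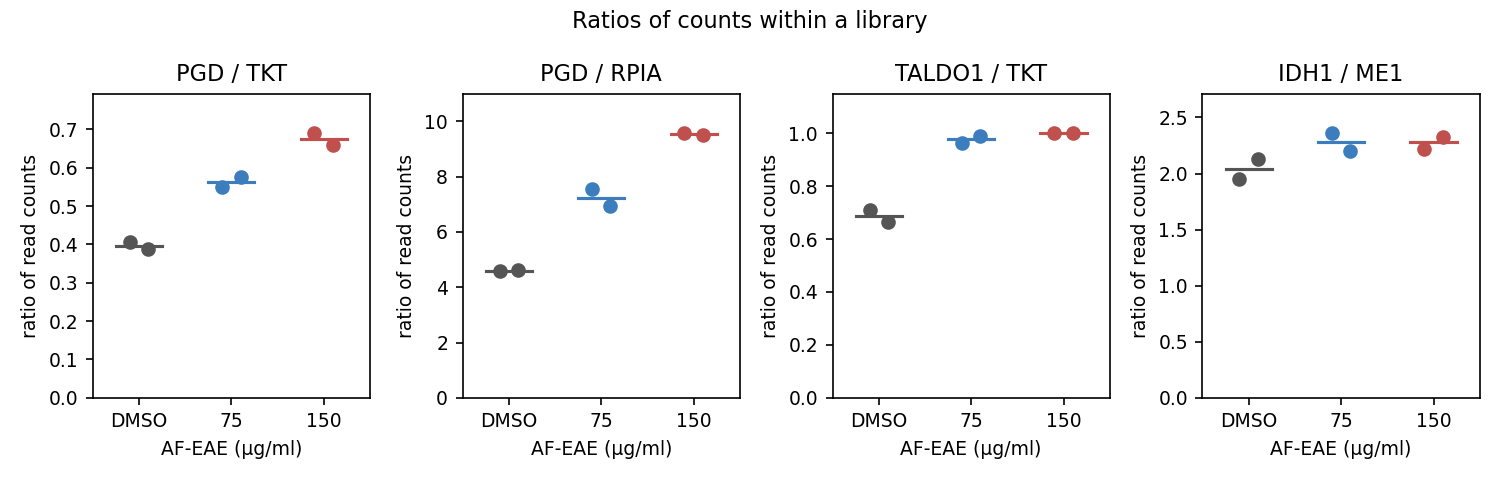
Ratio of read counts of 2 genes in each library (points, y axis from 0) with the group mean (line), by AF-EAE dose. PGD per TKT goes from a mean of 0.397 to 0.563 and 0.674 and PGD per RPIA from 4.6 to 7.24 and 9.55. IDH1 per ME1 lies between 1.95 and 2.36, with the treated libraries above DMSO.

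Levels per length (TPM, from all annotated exons of a gene) gave the order TALDO1, PGD, TKT, RPIA, IDH1 and ME1 in DMSO, at 469 ± 23.6, 275 ± 10.7, 216 ± 0.8, 95.8 ± 3.9, 68.6 ± 9.81 and 47.0 ± 3.82 TPM (SD, n = 2 each). At 150 µg/ml the order was TALDO1, PGD, TKT, IDH1, ME1 and RPIA, at 601 ± 12.2, 410 ± 4.85, 190 ± 4.1, 145 ± 5.8, 89.3 ± 0.426 and 68.9 ± 0.576 TPM. RPIA moved from above to below both IDH1 and ME1. Neighbours in either order did not overlap. TKT has 9507 bases of annotated exons but 3010 in its longest principal transcript, and its place depends on that choice. With principal transcripts TKT stood above PGD in DMSO (438 ± 0.558 against 278 ± 10.2 TPM) and below it at 150 µg/ml (381 ± 8.96 against 410 ± 4.07 TPM). IDH1 stood above RPIA in both groups under that choice, and ME1 passed RPIA as before (from 30.2 against 61.5 to 56.7 against 43.8 TPM).

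All 4 listed genes of the oxidative branch rose at both doses, PGD among them, with a median log2 fold change of 0.55 at 75 µg/ml and 0.52 at 150 µg/ml, where 19.2% and 25.8% of all genes rose. PGLS, the lactonase gene between the dehydrogenase steps, went from 17.1 and 21.5 CPM in DMSO to 29.7 and 28.1 CPM with 75 µg/ml and 34.0 and 29.3 CPM with 150 µg/ml. H6PD, whose enzyme runs the first steps of the branch inside the endoplasmic reticulum, went from 42.1 and 48.8 CPM to 72.3 and 70.2 CPM and 69.5 and 67.6 CPM. Their log2 fold changes at 150 µg/ml were 0.71 for PGLS and 0.59 for H6PD, with SE 0.117 and 0.0768.

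In the non-oxidative branch 3 of 5 tested genes fell at both doses, where 19.4% and 25.7% of all genes fell. RPE, the epimerase gene that feeds transketolase, fell with RPIA and TKT, from 47.2 and 44.7 CPM in DMSO to 37.5 and 37.0 CPM with 75 µg/ml and 30.4 and 35.6 CPM with 150 µg/ml (log2 fold change -0.48, SE 0.0894, adjusted p = 0.000238 for the higher dose, edgeR). SHPK, the sedoheptulokinase gene, was at 1.32 to 2.64 CPM and did not pass. TKTL1, a transketolase-like gene, had 0 counts in every library, which allows up to 0.192 CPM for counting error only. The list's median was -0.30 at 75 µg/ml and -0.44 at 150 µg/ml. Under total counts 1 gene fell and 1 rose at 75 µg/ml, and 3 fell and 1 rose at 150 µg/ml.

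The list of NADPH-making genes outside the pathway and their folate relatives moved in both directions. Of 12 tested, with ME1 and IDH1 among them, 4 rose and 6 fell at each dose (median -0.08 and -0.30), where 19.2% of all genes rose and 19.4% fell at the lower dose and 25.8% rose and 25.7% fell at the higher. The share that rose was not far from that of all genes at the higher dose, and under total counts 4 rose and 4 fell at each. None of ME2, ME3 and IDH2, the mitochondrial relatives of ME1 and IDH1, rose. ME3, a mitochondrial malic enzyme gene, fell from 33.2 and 34.2 CPM to 21.7 and 26.4 CPM with 75 µg/ml and 11.5 and 15.4 CPM with 150 µg/ml (log2 fold change -1.32 at the higher dose, SE 0.132). ME2, whose mitochondrial enzyme prefers NAD, was at -0.28 and -0.31. IDH2, the mitochondrial counterpart of IDH1, did not pass at either dose (0.07 and -0.09).

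NNT, which makes mitochondrial NADPH from NADH with the proton gradient, fell from 200 and 203 CPM to 138 and 142 CPM with 75 µg/ml and 97.2 and 103 CPM with 150 µg/ml. It was 2.01-fold lower at the higher dose (adjusted p = 6.05e-11, edgeR). The folate enzymes split as well. MTHFD1, the cytosolic trifunctional enzyme gene, fell from 288 and 291 CPM to 193 and 192 CPM and then 140 and 150 CPM. The mitochondrial MTHFD2 rose from 61.6 and 57.1 CPM to 95.4 and 92.8 CPM and then 139 and 144 CPM (1.25, SE 0.0613). MTHFD2L rose to 2.36-fold (log2 fold change 1.24). Both are counted among the rises of the list, but RNA does not show whether their enzymes use NAD or NADP. GLUD1, the glutamate dehydrogenase gene, fell by 0.43 on the log2 scale at 150 µg/ml. MTHFD1L, a mitochondrial formyl-tetrahydrofolate synthetase gene that is in the list but whose enzyme has no dehydrogenase activity and makes no NADPH, fell by 0.29.

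**Figure D4:**
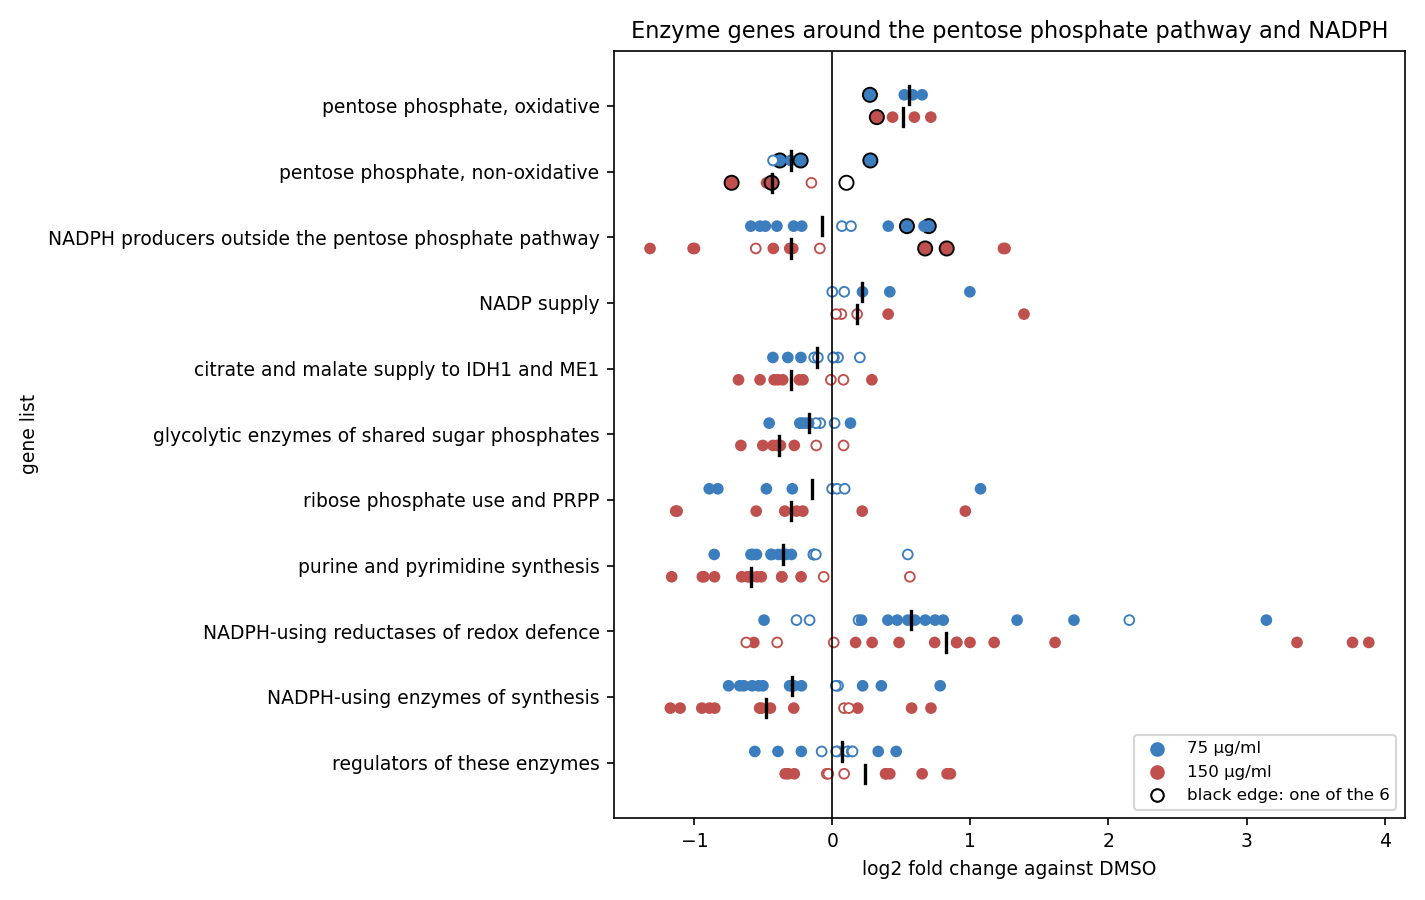
Log2 fold change against DMSO (x axis) of every tested gene of each list (y axis) at 75 µg/ml (blue) and 150 µg/ml (red). Filled points have an adjusted p under 0.05, black edges mark the 6 genes and short lines the medians; the oxidative genes all lie right of 0, while the synthesis, purine and glycolytic lists lie mostly left of it.

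Of 10 genes that provide citrate, isocitrate or malate, 4 fell at 75 µg/ml with 0 higher, and 7 fell at 150 µg/ml with 1 higher (median -0.11 and -0.30). Over all genes 19.4% and 25.7% fell. Without the second DMSO library, or without the second at 75 µg/ml, 1 gene of the list rose at the lower dose. Citrate synthase, CS, went from 255 ± 3.05 to 159 ± 6.2 CPM at the higher dose and the aconitase gene ACO1 from 292 ± 2.26 to 203 ± 10.5 CPM (SD, n = 2 each), while the aspartate transaminase gene GOT1 rose from 117 ± 0.638 to 143 ± 14 CPM. Under total counts 3 rose and 2 fell at 75 µg/ml and 3 rose and 5 fell at 150 µg/ml. Of 9 glycolytic genes that share sugar phosphates with the pathway, 5 fell at 75 µg/ml with 1 higher and 7 fell at 150 µg/ml (median -0.17 and -0.38), and under total counts 1 fell and 2 rose at the lower dose and 6 fell and 1 rose at the higher. The 1 rise at the lower dose was lost without any single one of the DMSO or 75 µg/ml libraries. GPI, the glucose 6-phosphate isomerase gene, was at -0.66 and the phosphofructokinase gene PFKP at -0.50 at 150 µg/ml. Of the 9, ALDOA had means of only 1.31 CPM in DMSO and 1.21 CPM at each dose. It did not pass at either dose, with SE 0.444 and 0.443, so its counts say little about a change. Whether its reads were among those assigned to no single gene was not tested.

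Of 8 genes of ribose phosphate and PRPP, the activated ribose of nucleotide synthesis, 4 fell and 1 rose at 75 µg/ml and 6 fell and 2 rose at 150 µg/ml (median -0.15 and -0.30), beside 19.4% and 25.7% of all genes that fell. Under total counts 3 fell and 2 rose at each dose. PRPS2, a PRPP synthetase gene, fell from 73.6 and 73.0 CPM to 41.9 and 37.1 CPM and then 32.8 and 33.9 CPM, and PGM2, which interconverts ribose phosphates, was 2.18-fold lower at 150 µg/ml. The rises were PRPSAP2 (0.22) and the low ribokinase gene RBKS (0.96, from 2.08 ± 0.353 to 4.06 ± 1.64 CPM; SD, n = 2 each). These rises depend on single libraries: 0 genes rose at 75 µg/ml without the second DMSO library or the first at 75 µg/ml, and at 150 µg/ml 0 without the second DMSO library or the second at 150 µg/ml, 1 without the first at 150 µg/ml and 0 by DESeq2. Of 15 purine and pyrimidine synthesis genes, 11 fell at 75 µg/ml and 12 at 150 µg/ml (median -0.36 and -0.59), beside 19.4% and 25.7% of all genes. PAICS, a purine synthesis gene, went from 452 ± 0.0856 to 235 ± 11.1 CPM and the CTP synthase gene CTPS1 from 115 ± 7.04 to 51.4 ± 1.21 CPM (SD, n = 2 each).

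Enzymes that use NADPH were read as 2 lists. Of 16 reductases of redox defence, 11 rose and 1 fell at 75 µg/ml and 12 rose and 1 fell at 150 µg/ml (median 0.57 and 0.82), where 19.2% and 25.8% of all genes rose. The number that fell was 2 at 75 µg/ml without the second library of that dose and 2 at 150 µg/ml without the first DMSO library. TXNRD1, the cytosolic thioredoxin reductase gene, rose from 752 and 759 CPM to 1235 and 1173 CPM and then 1565 and 1451 CPM, and PTGR1, which reduces prostaglandins and alkenals, was at 2.25-fold at the higher dose. The mitochondrial TXNRD2 fell by 0.57 on the log2 scale. Several AKR1 genes of this list are near-identical and can share reads, so their values are uncertain. Of 14 NADPH-using genes of lipid, sterol, folate and proline synthesis, 9 fell and 3 rose at each dose (median -0.29 and -0.48), where 19.4% and 25.7% of all genes fell. Under total counts 8 fell and 5 rose at 150 µg/ml. The 3 that rose at 75 µg/ml became 1 without the second DMSO library, without the first at 75 µg/ml and with DESeq2. The sterol reductase gene LBR was 2.26-fold lower at 150 µg/ml, while another one, TM7SF2, rose 1.64-fold.

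NAD supply and regulators were also read. NAMPT, the rate-limiting gene of NAD salvage, rose from 577 and 629 CPM to 1175 and 1231 CPM and then 1578 CPM in both libraries (log2 fold change 1.39, SE 0.0476). NADK, the cytosolic kinase gene that makes NADP from NAD, did not pass (0.09 and 0.06), and NADK2 was at -0.00 and 0.03. In this list 3 of 5 tested genes rose at 75 µg/ml and 2 at 150 µg/ml, beside 19.2% and 25.8% of all genes, and 4 at each dose under total counts. The count at 75 µg/ml was 1 higher and 1 lower with DESeq2 and without the second library of that dose, and so was the count at 150 µg/ml with DESeq2 and without the second library of that dose. No gene of the list fell in the full set, and 1 fell at 75 µg/ml also without the first DMSO library or either library at 150 µg/ml, and at 150 µg/ml also without any other single library except the second DMSO library. Among 12 regulators 2 rose and 3 fell at 75 µg/ml and 6 rose and 3 fell at 150 µg/ml, against 7 and 2 and 9 and 1 under total counts. Of all genes 38.6% were called at 75 µg/ml and 51.5% at 150 µg/ml, and the 5 of 12 regulators called at the lower dose are near that background.

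NFE2L2, whose product NRF2 is held in check by KEAP1, was at 0.12 at 75 µg/ml (adjusted p = 0.088, edgeR) and rose by 0.39 at 150 µg/ml (adjusted p = 6.16e-06). KEAP1 did not pass (0.04 and 0.09). MAFG, an NRF2 partner, rose by 0.33 and 0.83, ATF4 by 0.46 and 0.86, and BACH1, a repressor at the same elements, was at 0.11 and rose by 0.39. Of the regulators of lipid genes, SREBF1 fell by 0.39 and 0.34 and SREBF2 by 0.23 and 0.32. MYC fell by 0.56 at 75 µg/ml and by 0.28 at 150 µg/ml. TIGAR, whose product lowers glycolytic flux, rose at 150 µg/ml from 3.56 ± 0.231 to 5.6 ± 0.62 CPM (SD, n = 2 each). MAFF rose at 150 µg/ml (0.42), and HIF1A (0.15 and -0.03) did not pass.

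The genes most like each of the 6 were sought among 9506 genes of 10 CPM or more, by the root mean square difference of log2 CPM centred on the 6 libraries. For PGD these were the amino acid transporter gene SLC38A7 (0.0164) and TOR1A (0.0176), and for TALDO1 MRGBP (0.0227) and NOTCH1 (0.0231). TKT was nearest to DCAF1 (0.0104) and the processed copy HNRNPCP2 (0.0158), and RPIA to AGRN (0.0183) and C9orf40 (0.0199). ME1 was nearest to ITGA5 (0.0247) and SLC50A1 (0.0249), and IDH1 to KIAA1217 (0.0276) and TSPAN31 (0.044). Among the 6 themselves the smallest differences were 0.092 between ME1 and IDH1, 0.107 between PGD and TALDO1 and 0.132 between TKT and RPIA, and the largest was 0.664 between IDH1 and RPIA. In each case a gene outside the pathway was nearer than any of the other 5. With 9506 genes searched against 5 this was likely in advance, and it does not show whether the 6 move together.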

How the data were processed

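The authors deposited a file of raw counts for each of the 6 libraries. HISAT2 2.2.1, HTSeq 2.0.2 and hg38 are named by the submitters' processing notes; the sources used here give no order, options or annotation release. The 5 summary rows were left out. Of gene counts and all summary rows together, reads outside genes made up 6.32% to 7.98% and reads assigned to no single gene 10.95% to 11.48%. Symbols were matched by identifier without version (60481 of 60651 rows). Coordinates and exon lengths are from GENCODE 29, promoters from RefSeq.

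Counts were fitted with edgeR 4.0.16 in R 4.3.3: TMM, the default filter by group (15589 genes kept), a mean per group over all 6 libraries, 3 residual and 13.8 prior degrees of freedom, the quasi-likelihood F-test and Benjamini-Hochberg adjustment at 0.05. The biological coefficient of variation was 5.08%. The SE derives from the F statistic and the 95% interval from the fit's degrees of freedom. The script was tested on simulated data. Replicates differed by more than sampling noise (chi-square per degree of freedom 2.83 to 3.65).

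Members and lists were chosen with earlier results of these data known. Named were the 6 genes, genes of the pathway and NADPH lists, all regulators, the 2 smallest p per direction of other lists at 150 µg/ml, and the 2 most similar genes each. Further named were NADK, NADK2 and list genes with low counts. Some genes that this rule takes are not reported here. Alternatives were DESeq2 size factors, total counts, no filter, DESeq2 1.42.0, a block for the replicate number, leaving out single libraries, the 2 groups alone, an adjusted p of 0.01, and, added after the data were seen, principal transcript lengths.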

Additional observations from a re-analysis of the deposited data

How the results depend on the processing

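Of 306 values of the 6 genes under an alternative, 279 kept their direction and side of the threshold, 18 lost the call, 4 gained it and 5 changed sign. Calls at 75 and 150 µg/ml against DMSO were kept by all alternatives run, except TKT at 75 µg/ml under total counts (-0.10, leaving 1 of the 6 lower) and the TALDO1 call at 150 µg/ml, gained under total counts (0.29) and without the first DMSO library. Total counts also took TALDO1 in 150 against 75 to -0.11, PGD in the difference between the steps to -0.29 (past the threshold), and TKT and RPIA there to -0.045 and -0.034, both reversed and not called. DESeq2 gave -0.39 for the ME1 step difference, without a call, and an adjusted p of 0.01 removed the calls of TALDO1 in 150 against 75 (-0.17) and of the ME1 step difference (-0.41). The cause was not tested.

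Leaving out single libraries (the lone library then assumed to vary like the others) gave 0.039 to 0.16 for TALDO1 at 150 µg/ml. In 150 against 75 it gave -0.26 to -0.15 for TKT, -0.21 to -0.13 for TALDO1 and -0.38 to -0.31 for RPIA, with 0 to 3 of the 6 called by edgeR and lower (3 to 4 at an unadjusted p under 0.05; DESeq2 on all libraries 3). For the difference between the steps it gave -0.27 to -0.17 for PGD, -0.48 to -0.33 for ME1, -0.52 to -0.36 for TALDO1, -0.71 to -0.44 for IDH1, -0.086 to 0.15 for TKT and -0.028 to 0.11 for RPIA, with 0 to 3 called and lower (3 to 4 at an unadjusted p under 0.05; DESeq2 2). RPIA reversed to -0.02 without the first DMSO library and -0.028 without the first at 75 µg/ml, and TKT to -0.086 without the second there; none was called.

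Same-numbered replicates did not deviate together over all genes (correlations 0.06, 0.04 and 0.00). No pairing by number was detected, though one that touches only some genes could be missed. With the replicate block 6, 5 and 3 of the 6 were called, as without it, and the regulators that rose at 75 µg/ml went from 2 to 4. Over all genes, calls in 150 against 75 went from 3433 to 1507 without the first library at 150 µg/ml, 1990 without the first at 75 µg/ml and 1883 at 0.01. Those of the step difference went from 2068 to 890 without the first and 1037 without the second library at 75 µg/ml, 1355 without the first at 150 µg/ml, 1328 with DESeq2 and 987 at 0.01. DESeq2 called 1931 genes higher at 75 µg/ml (2989 in the main analysis) and 850 higher in 150 against 75 (1482). Of 1122 list counts, 994 stayed within 1.5 times. Depth limited the lowest list genes: AKR1C2 and RBKS had few reads.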
